A study of Caenorhabditis elegans with 2 samples.

Results

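The regions described here are distal intergenic sites on the autosomes that carried strong chromatin immunoprecipitation (ChIP-seq) signal in first-stage larvae of Caenorhabditis elegans. They were chosen by the pooled signal of both libraries. From the authors' relaxed pooled list of 30000 regions, the 2000 with the highest signal were taken, and 1529 of these lay on chromosomes I to V. Of those 1529, 565 had their summit in a promoter window (from 1000 bp before a protein-coding gene's 5' end to 500 bp after it), 346 in an intron and 248 in an exon. The remaining 370 lay in no protein-coding gene body and in no promoter window, and these are the distal intergenic regions. The summit is the point the authors marked within each region. For comparison, 4928 autosomal regions of the same location had pooled ranks below 2000.

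A single strain and stage was profiled, with no second condition. The worms were whole L1 larvae of strain OP355, males and females pooled, with the genotype unc-119(tm4063) III and the transgene wgIs355. The transgene encodes a factor tagged with enhanced green fluorescent protein (eGFP), whose promoter the labels do not state, and both libraries carry the same transgene and mutation. The labels disagree on that factor, with mdl-1 given as the antibody target and in the source name, and ZK337.2 in the description. There were 2 biological replicates with 1 library each, with a size range of 150 to 350 bp.

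MDL-1 belongs to the Myc, Max and Mondo network of helix-loop-helix leucine zipper factors and is related to mammalian MAD repressors. Proteins of this class bind as dimers, and with a MAX-like partner they recognise the palindromic E-box CACGTG. In the compact worm genome most mapped factor binding is close to promoters, so strong sites far from any 5' end are the less usual case. Not all regions here were far from one, since 142 of the 370 (38.4%) lay within 2000 bp of a 5' end. ChIP-seq in whole larvae averages over all tissues, so a region bound strongly in few cells and one bound weakly in many cannot be told apart.

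To show what these regions look like, the 101 bases centred on the summit are printed for 12 of them. They are on the plus strand of WBcel235 (ce11), with 4 motifs in capitals wherever they occur on either strand. These are the E-box CACGTG, which reads the same on both strands, its variant CACGCG (on the opposite strand it reads as CGCGTG), the hexamer CGTCTC (there it reads as GAGACG) and the GA repeat GAGAGAG (there it reads as CTCTCTC). The hexamer can share bases with the GA repeat, as in the T04C4.3 sequence. The first 6 are the strongest with CACGTG within 50 bp of the summit, so its closeness follows from the choice. In most cases it stands amid GA-rich sequence.
aakg-1, rank 2, chrIII:12583635-12583735: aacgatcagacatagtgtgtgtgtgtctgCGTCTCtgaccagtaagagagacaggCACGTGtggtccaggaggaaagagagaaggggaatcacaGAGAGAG
gdh-1, rank 6, chrIV:11956461-11956561: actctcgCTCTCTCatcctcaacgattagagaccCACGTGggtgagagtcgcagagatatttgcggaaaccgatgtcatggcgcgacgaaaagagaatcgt
T04C4.3, rank 7, chrIV:2219607-2219707: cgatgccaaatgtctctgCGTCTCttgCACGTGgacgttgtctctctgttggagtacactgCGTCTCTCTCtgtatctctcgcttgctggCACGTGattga
nhr-34, rank 15, chrIV:9677771-9677871: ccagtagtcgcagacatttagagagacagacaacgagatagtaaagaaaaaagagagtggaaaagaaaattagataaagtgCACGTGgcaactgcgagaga
saeg-1, rank 53, chrV:10871574-10871674: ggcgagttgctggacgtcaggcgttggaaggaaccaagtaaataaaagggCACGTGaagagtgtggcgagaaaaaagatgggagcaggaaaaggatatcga
Y17G7B.17, rank 54, chrII:12102474-12102574: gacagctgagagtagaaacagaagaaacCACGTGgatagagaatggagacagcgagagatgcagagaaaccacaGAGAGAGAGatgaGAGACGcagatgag
Of the 4 strongest with GAGAGAG and no CACGTG, all but F58D5.5 are printed next, to show the repeat without the E-box.
mtm-3, rank 9, chrIII:3801458-3801558: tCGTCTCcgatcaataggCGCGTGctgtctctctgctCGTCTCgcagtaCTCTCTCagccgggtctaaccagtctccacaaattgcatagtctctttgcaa
nhr-88, rank 26, chrII:2974015-2974115: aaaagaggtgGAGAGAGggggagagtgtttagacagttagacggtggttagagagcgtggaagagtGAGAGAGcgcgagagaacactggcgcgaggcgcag
F43C1.7, rank 84, chrIII:4237890-4237990: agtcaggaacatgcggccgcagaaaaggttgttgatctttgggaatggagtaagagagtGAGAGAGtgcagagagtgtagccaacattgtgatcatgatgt
The 3 strongest with neither sequence and outside annotated non-coding RNA genes are given for contrast.
hif-1, rank 3, chrV:20778358-20778458: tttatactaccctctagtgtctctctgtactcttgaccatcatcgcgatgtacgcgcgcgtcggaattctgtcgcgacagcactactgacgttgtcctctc
ogt-1, rank 20, chrIII:7155820-7155920: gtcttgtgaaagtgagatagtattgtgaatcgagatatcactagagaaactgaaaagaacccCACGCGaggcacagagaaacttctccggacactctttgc
zer-1, rank 75, chrIII:888043-888143: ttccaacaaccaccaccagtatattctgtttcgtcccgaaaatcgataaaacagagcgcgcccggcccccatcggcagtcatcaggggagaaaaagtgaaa

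Of the first 6, the aakg-1, gdh-1, T04C4.3 and Y17G7B.17 sequences also held the GA repeat, and the T04C4.3 sequence held CACGTG at 2 places. Within the 3 printed last, the ogt-1 sequence held CACGCG, and the hif-1 and zer-1 sequences held none of the 4 motifs. CACGTG did occur near the hif-1 summit, at chrV:20778318-20778323, but 87.5 bp away and outside the region as called (20778337 to 20778445). Of the 20 strongest distal intergenic regions, 7 had CACGTG within 50 bp of the summit and 12 within 500 bp. GAGAGAG was within 50 bp of 9, CGTCTC of 8 and CACGCG of 3, and 15 of the 20 had at least 1 of these 4.

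The strongest region, rank 2 in the whole pooled list, lay in a gene-poor stretch of chromosome III at 12583608 to 12583760. Its signal was 150.4 in replicate 1, where it ranked 5, 192.7 in replicate 2, where it ranked 2, and 340.2 in the pooled list. It sat 8284 bp upstream of aakg-1 (WBGene00013732, chromosome III, 12538664 to 12575401, minus strand), whose product is a gamma subunit of the energy sensor AMPK (AMP-activated protein kinase). The gene on its other side, gldi-8, ended 12309 bp away. This left an intergenic interval of 20592 bp, against a median of 7151 bp for the distal intergenic regions as a whole.

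Strong regions flanked both hif-1 and egl-9, genes that act together in the oxygen response. HIF-1 is the hypoxia-inducible transcription factor, and EGL-9 is the prolyl hydroxylase that marks it for degradation when oxygen is present. The hif-1 region (chromosome V, 20778337 to 20778445) had a signal of 144.6 in replicate 1, 156.9 in replicate 2 and 299.5 pooled. It lay in intergenic sequence between hif-1 (WBGene00001851, 20780407 to 20785260, plus strand), whose 5' end was 1999 bp away, and the divergent gene F38A6.4. The egl-9 region (chromosome V, 10466582 to 10466921) had a signal of 70.4 in replicate 1, 85.8 in replicate 2 and 159.8 pooled. It lay 1765 bp upstream of egl-9, and its summit fell inside F22E12.9, an annotated non-coding RNA gene. The egl-9 region held CACGCG and CGTCTC and had no CACGTG within 500 bp of its summit.

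The summit of the gdh-1 region (chromosome IV, 11956417 to 11956584, signal 160.9 in replicate 1, 118.9 in replicate 2) was inside the non-coding RNA gene ZK829.13. It sat between 2 convergent genes, gdh-1, a glutamate dehydrogenase, whose 3' end was 970 bp away, and tgt-1, a tRNA guanine transglycosylase. The T04C4.3 region (chromosome IV, 2219603 to 2219761, 130.5 and 147.0 in replicates 1 and 2) was 2801 bp upstream of T04C4.3. The divergent gene fnip-2, related to mammalian folliculin-interacting proteins, began 3171 bp from its other side. The mtm-3 region (chromosome III, 3801431 to 3801555, 129.3 and 135.8) lay 1041 bp upstream of mtm-3, a myotubularin-family lipid phosphatase. In these 3 regions both replicates ranked the site among their 11 strongest.

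Next in order were regions upstream of ppm-2, a protein phosphatase (chromosome III, 4649323 to 4649662, 93.2 and 120.3 in replicates 1 and 2), and nhr-34, a nuclear hormone receptor (chromosome IV, 9677765 to 9677865, 99.5 and 109.1). The ppm-2 summit lay inside the non-coding RNA gene T23F11.7. It was 1001 bp from the ppm-2 5' end, at the edge of the promoter window. The nhr-34 region was flanked on its other side by ins-8, an insulin-like peptide gene, whose 3' end was 2516 bp away. A region 2073 bp upstream of ogt-1, the O-GlcNAc transferase (chromosome III, 7155700 to 7156039, 103.7 and 79.4), had the 3' end of nuo-4, a mitochondrial complex I subunit gene, only 156 bp from its summit. The nhr-88 region (chromosome II, 2973895 to 2974234, 73.7 and 82.0) and the F58D5.5 region (chromosome I, 12039813 to 12040152, 72.8 and 65.3) followed. They lay 2574 bp and 1052 bp upstream of those genes. These 11 regions, of rank up to 33 in the pooled list, were all upstream of the gene with the nearest 5' end except that of gdh-1, which lay past its 3' end.

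**Figure D1:**
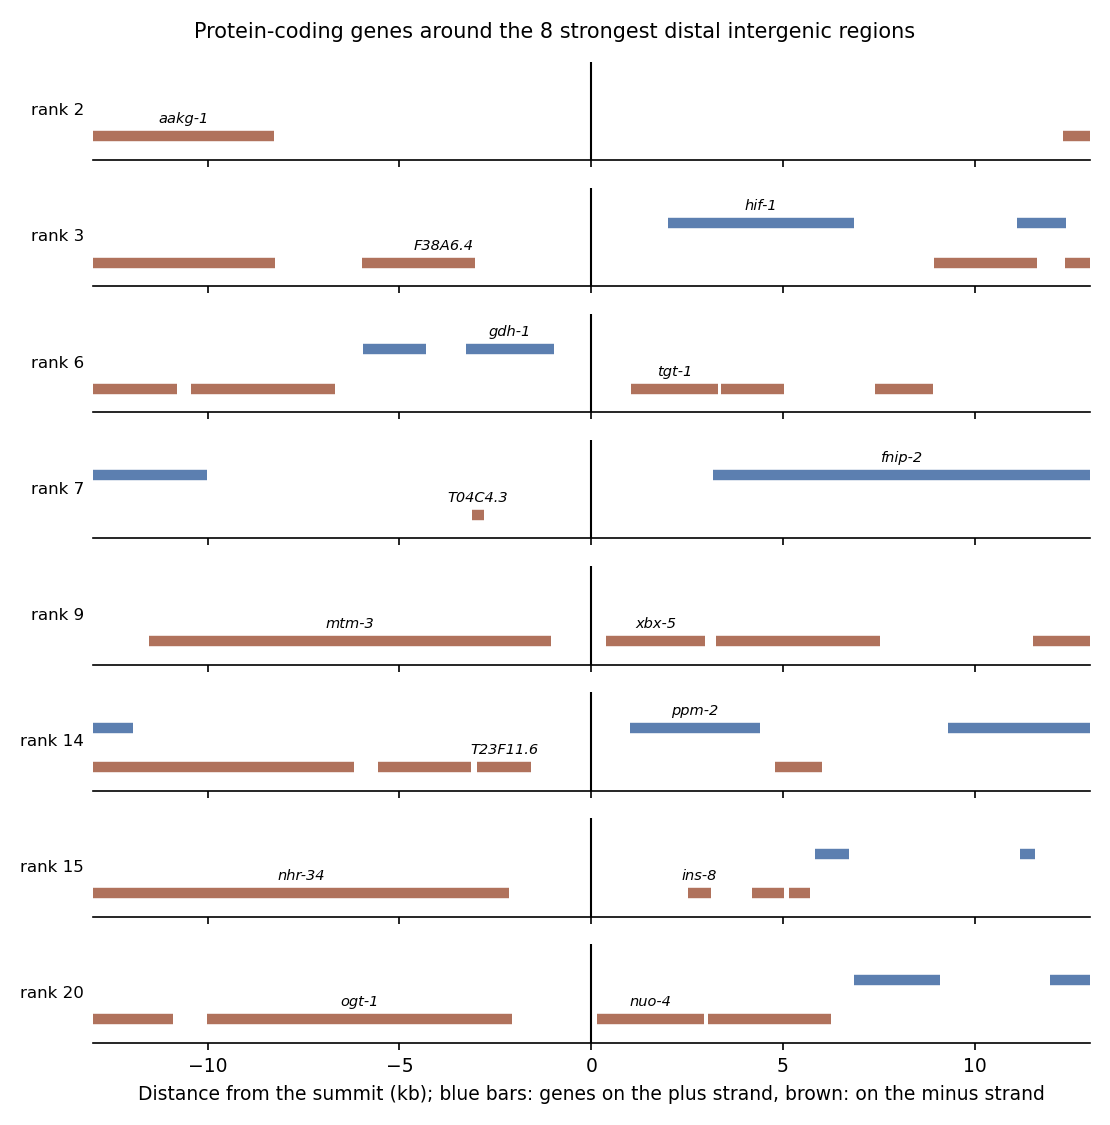
Protein-coding genes within 13 kb of the 8 strongest distal intergenic regions. Each row is centred on the summit (black line), with distance in kb, and bars above and below stand for genes on the plus and the minus strand. The aakg-1 region has no gene within 8284 bp, and the ogt-1 region lies 156 bp from the end of nuo-4.

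The other 9 of the 20 strongest had pooled signals from 106.2 down to 79.1. They lay nearest to the 5' ends of saeg-1, a regulator of the EGL-4 kinase pathway, Y17G7B.17, zer-1, a substrate receptor of a ubiquitin ligase, pptr-1, a regulatory subunit of protein phosphatase 2A, ddx-23, an RNA helicase gene, F43C1.7, irld-18, sup-26, an RNA-binding protein gene, and cpt-1, a carnitine palmitoyltransferase of fatty acid oxidation. The flanking genes on their other sides were F32D8.1, Y17G7B.18, T24C4.10, W08G11.1, W04D12.1, nhr-20, dmd-6, R10E4.3 and Y46G5A.18. The ddx-23 region differed most between replicates, with a signal of 59.6 (rank 47) in replicate 1 and 20.9 (rank 836) in replicate 2. The irld-18 region lay in the longest interval of the 20, 35563 bp, and was 13381 bp from that gene.

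Below these leaders the pooled signal was low and nearly flat. The 370 regions ranged from 30.9 to 340.2 with a median of 35.0, and 13 had 100 or more, 28 had 50 to 100 and 329 had 30 to 50. The lower-ranked distal intergenic regions ranged from 15.98 to 30.9 with a median of 19.9. Signal is in the authors' own deposited unit, whose scale is not stated, and no read counts were given, so depth is unknown. At the boundary the regions did not differ in substance. The last 3 inside, near CD4.1, Y67D8B.1 and F42C5.9, had signals of 30.95, 30.93 and 30.92. The first 3 outside, near C15F1.2, M01G12.2 and C30G7.2, had 30.92, 30.91 and 30.91. Of the 370, 41 were in the authors' thresholded list, which held 0.863% of all pooled regions. That list was made from the same pooled signal, so nothing is read from this count.

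In the replicate lists, a region with its summit within 200 bp was found for 340 of the 370 in replicate 1 and for 331 in replicate 2. Both lists had one for 301 (81.4%), against 24.9% of all 30000 pooled regions, and each of the 370 was in at least 1. The pooled signal that chose the regions comes from these same libraries, so this is a description. Among the matched regions the signal ran from 10.2 to 160.9 with a median of 20.1 in replicate 1, and from 8.58 to 192.7 with a median of 16.4 in replicate 2. Of the 20 strongest, all 20 were among the 259 strongest regions of replicate 1 and 19 among those of replicate 2. Over the whole set only 55 were among the 2000 strongest of both replicates. A further 124 were so in replicate 1 alone, 90 in replicate 2 alone and 101 in neither.

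**Figure D2:**
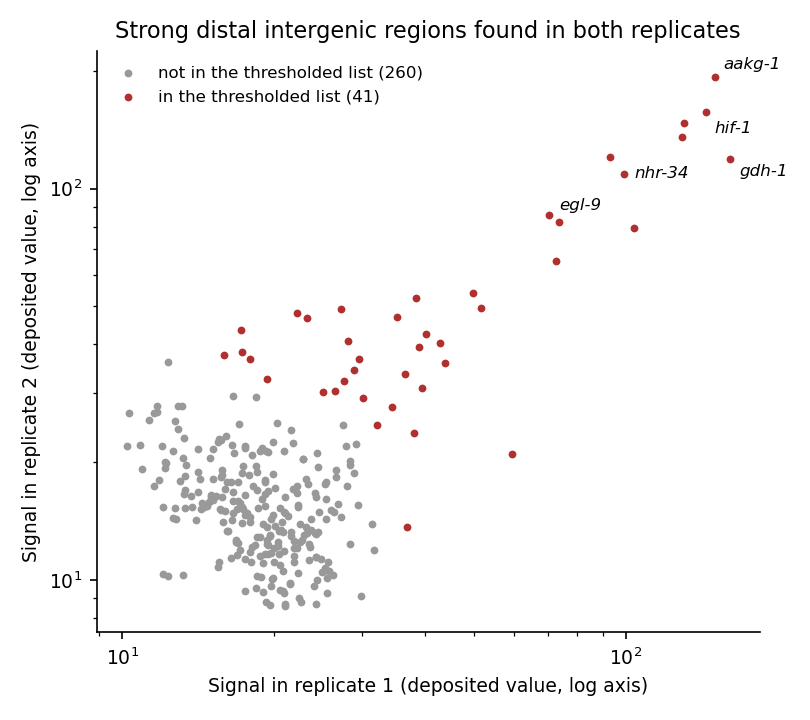
Signal in replicate 1 against replicate 2, both in the deposited unit on log axes, for the 301 distal intergenic regions found in both lists. Points in red, 41 regions of the authors' thresholded list, reach up to 160.9 and 192.7, while most others crowd around the medians of 20.1 and 16.4. The regions were chosen by pooled signal, so the spread of the points depends on that choice.

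To test agreement without the pooled signal, strong distal intergenic regions were chosen in replicate 1 alone and looked for in replicate 2. Of 416 such regions, 55 (13.2%, 95% interval 10.1% to 16.9%) had a summit within 200 bp among the 2000 strongest of replicate 2, against 1.64% of 5417 lower-ranked distal intergenic regions. The odds ratio was 9.11 (6.28 to 13.1, Fisher's exact test, two-sided, p = 2.4e-27). In the other direction 55 of 316 (17.4%) were found against 2.72%, with odds 7.52 times as high (Fisher's exact test, p = 5.1e-24). So sites recurred well above the background share, while more than 8 in 10 strong distal intergenic regions of either replicate were not among the strong regions of the other.

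Strong promoter regions recurred more often. With regions again chosen in replicate 1, 117 of 529 promoter regions (22.1%) were found in replicate 2, and the odds ratio of distal intergenic against promoter regions was 0.537 (0.371 to 0.771, Fisher's exact test, adjusted p = 0.0057 over 12 comparisons). The call was lost when regions were chosen in replicate 2 (0.707, Fisher's exact test, adjusted p = 0.26) and with summits at most 50 bp apart (0.574, Fisher's exact test, adjusted p = 0.064). For intronic regions the share was 16.8%, with an odds ratio of 0.757 (0.503 to 1.14, Fisher's exact test, adjusted p = 0.40).

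The palindromic E-box was more frequent at the strong distal intergenic summits than at weaker ones. CACGTG lay within 50 bp of 32 of the 370 summits (8.65%, 95% interval 5.99% to 11.99%) and of 104 of 4928 (2.11%). The odds ratio was 4.39 (2.81 to 6.69, Fisher's exact test, adjusted p = 1.7e-09 over 11 sequences). GAGAGAG, a run of alternating G and A, lay at 43 (11.6%) against 2.496%, with an odds ratio of 5.13 (3.48 to 7.47, Fisher's exact test, adjusted p = 1.0e-13). CGTCTC lay at 41 (11.1%) against 3.21%, with an odds ratio of 3.76 (2.55 to 5.44, Fisher's exact test, adjusted p = 7.0e-10). That CACGTG and the GA repeat mark the strongest regions of these libraries was known before, so these values are not independent evidence of it.

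Base composition moved with these shares. G and C made up 39.5% ± 7.76 (SD, n = 370) of the 201 bases around strong summits and 34.8% ± 6.52 (n = 4928) around weaker ones. The difference was 4.76 percentage points (permutation test, p = 1e-05, the smallest that 100000 resamples can give), and it was 2.01 points with replicate 1 alone and 4.86 with replicate 2 alone. Within strata of equal GC content the odds ratio was 3.44 (2.22 to 5.33) for CACGTG, 2.86 (1.91 to 4.28) for GAGAGAG and 2.08 (1.39 to 3.12) for CGTCTC, all past the threshold adjusted over the 11 sequences. Soft-masked repeats covered more than 50% of the 101-base window at 62 strong summits (16.8%) and at 29.5% of weaker ones. Of the 43 windows with GAGAGAG, 4 were of that kind.

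The E-box variant CACGCG lay at 15 summits (4.05%) against 1.28%, with an odds ratio of 3.26 (1.71 to 5.87, Fisher's exact test, adjusted p = 0.00071), but within GC strata this call was lost, at 1.83 (0.974 to 3.42). Of the other E-boxes, CATGTG (odds ratio 1.49), CAGCTG (1.12) and CACCTG (1.5) did not pass. Neither did GTTCGA of tRNA gene promoters (1.07), the forkhead-type GTAAACA (1.27) or the AP-1-type TGACTCA (0.675), with adjusted p from 0.26 to 0.80 by Fisher's exact test. The GATA-type TGATAA lay at 41 (11.1%) against 9.29% (odds ratio 1.22, 0.845 to 1.71, Fisher's exact test, adjusted p = 0.42). It passed only within GC strata, at 1.53.

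All sequences of 6 bases, a sequence and its reverse complement counted once, were then tested in the same way. By Fisher's exact test, 73 were more frequent at strong summits (3.51% of those tested) and 30 less frequent (1.44%) at an adjusted p under 0.05. Of the 73, 43 had 4 or more G or C bases, and of the 30, 27 had at most 1. Within GC strata, an alternative added after seeing the data, 11 remained past the threshold and all 11 were among the 73. CGTCTC, at an odds ratio of 2.08, was not among these 11, although it passed over the shorter family of 11 sequences. CACGTG had the highest odds ratio there, at 3.44, and ACGTGG, which overlaps an E-box, had 2.32. The others were GAGAGA (odds ratio 2.25), AGAGAG (2.18), AGAGAC (2.42), AGACGC (2.54), GACGCA (2.37), ACGCAG (2.83), CGCAGA (2.20), AGACAC (2.39) and CGATCA (2.66). With replicate 1 alone 18 passed, and 119 with replicate 2 alone.

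From AGAGAC to CGCAGA these overlap end to end in the order given, so that they read as a single longer element. Its core on the opposite strand, CTGCGTCTC, was looked up after these values were seen and is given with no test. It lay within 50 bp of 27 of the 370 summits (7.30%, 95% interval 4.86% to 10.44%), of 0.873% of weaker distal intergenic summits, of 41 of 565 strong promoter summits (7.26%) and of 13 of 346 strong intronic summits (3.76%). The aakg-1 and T04C4.3 sequences above contain it, and Y17G7B.17 contains it on the other strand.

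In the strong set the motifs tended to occur at the same summits. CACGTG and GAGAGAG stood together at 11 strong summits and at 2 of the 4928 weaker ones. The weaker set held CACGTG at 104 summits and GAGAGAG at 123. GAGAGAG and CGTCTC stood together at 16, sharing bases at 3 of these, and all 3 motifs at 4. In the weaker set GAGAGAG and CGTCTC stood together at 17 summits. There 13.8% of regions with the GA repeat had CGTCTC, against 2.93% of the others, so this pairing was present in both sets. Of the strong regions with the GA repeat 25.6% also had CACGTG, against 6.42% of the strong regions without it, and in the weaker set the shares were 1.63% and 2.12%. Shares of these motifs also varied with rank, as given next, and the part of rank in the pairing was not tested. None of the 3 was found at 283 strong summits (76.5%) and at 92.7% of weaker ones.

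The motif shares were highest at the top ranks, and that of CACGTG did not fall at every step. CACGTG lay at 7 of the 20 distal intergenic regions ranked up to 100 (35%, 95% interval 15.4% to 59.2%), at 14.3% of those from there to rank 259, at 17.4% of those ranked 260 to 500, at 7.22% of those from there to rank 1000 and at 3.76% of those past 1000. From there to rank 5000 the share was 3.29%, within the interval of the bin above (1.53% to 7.6%). GAGAGAG went from 45% through 38.1%, 15.2% and 10.3% to 4.84%, and then 3.10%. Past rank 5000, CACGTG lay at 1.59% of regions up to rank 10000, 1.73% up to rank 20000 and 2.39% up to rank 30000. For GAGAGAG these shares were 2.95%, 2.31% and 2.28%. Mean GC content fell alongside, from 49.5% at ranks up to 100 to 36.6% between ranks 1000 and 2000 and 34.2% in the weakest regions, and its part in the fall of the motif shares was not tested. At the 186 regions ranked past 1000 the intervals of both shares thus reached those of the regions below rank 2000.

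**Figure D3:**
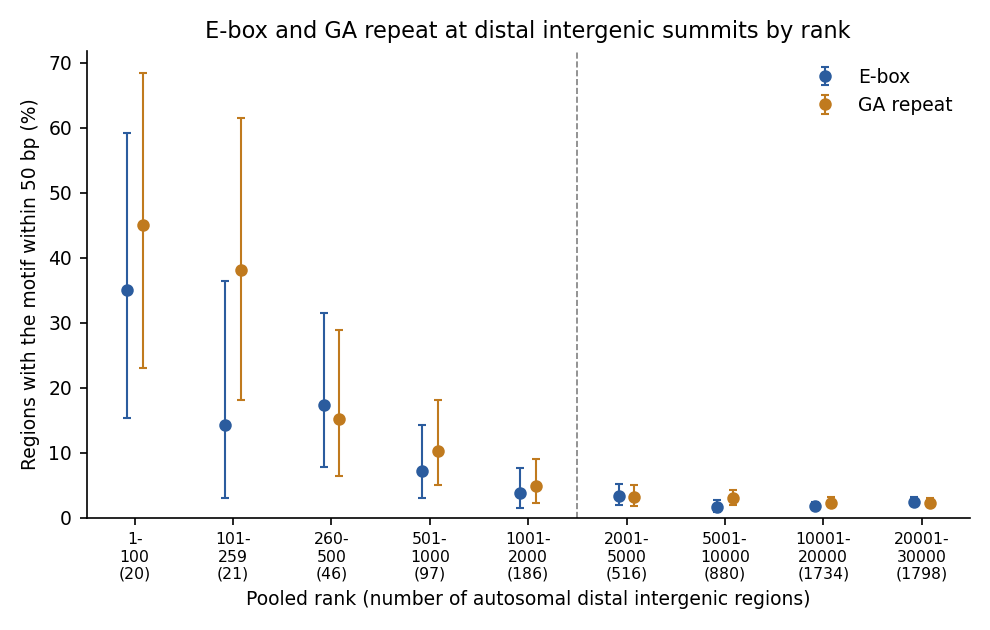
Share of autosomal distal intergenic regions with the E-box CACGTG (blue) or the GA repeat GAGAGAG (orange) within 50 bp of the summit, by pooled rank, with exact 95% binomial intervals and the number of regions under each bin. The dashed line separates ranks 1 to 2000 from the weaker regions, and both shares fall from 35% and 45% to 3.76% and 4.84% before that line.

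Where the motifs were present, the nearest one lay closer to the summit in strong regions than in weaker ones. The nearest CACGTG within 500 bp was found for 104 strong regions (28.1%) at a median of 93.5 bp, and for 14.7% of weaker regions at a median of 222.5 bp. For GAGAGAG the medians were 89.5 bp and 220.5 bp. At more than 250 bp from the summit the 2 sets held similar shares. The base preceding CACGTG, read outward on both strands, was C at 28 of 70 half-sites (40%) in the strong set and at 34.4% in the weaker set, with no test of the difference.

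**Figure D4:**
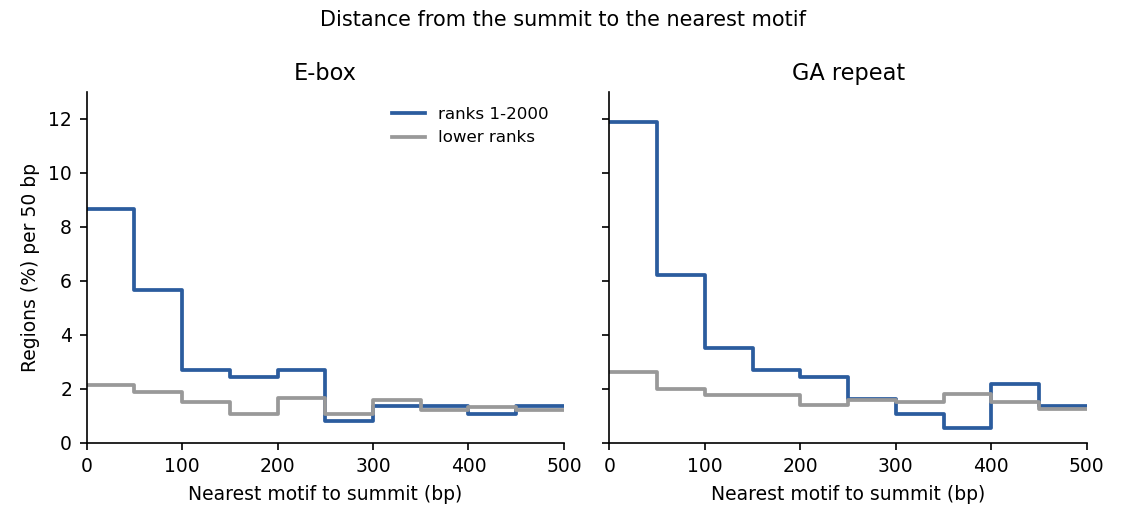
Distance from the summit to the nearest E-box CACGTG (left) and GA repeat GAGAGAG (right), as a percentage of regions in each 50-bp step. Strong regions (blue, 370) exceed the weaker ones (grey, 4928) near the summit, and the lines meet beyond about 250 bp.

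GC content and motif content also differed with the replicate in which a region was strong. The 55 regions among the 2000 strongest of both replicates had a mean GC content of 46.5% ± 8.0 (SD), and CACGTG lay at 13 of them (23.6%) and GAGAGAG at 20 (36.4%). Among the 90 regions strong by that measure in replicate 2 alone the GC content was 42.9% ± 6.93, with CACGTG at 10% and GAGAGAG at 14.4%. Among the 124 strong in replicate 1 alone it was 36.5% ± 6.65, with both motifs at 5.65%. The 101 regions strong in neither had 36.5% ± 5.74, and both motifs at 2.97%. The motifs and high GC content were thus most frequent where the replicates coincided. These groups come from the same libraries as the pooled signal, so they are not independent of pooled rank, along which the motif shares also changed. The part of pooled rank, GC content or depth in these differences was not tested.

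Against other strong regions, the distal intergenic ones carried the E-box about as often. CACGTG lay at 8.85% of strong promoter summits and 9.25% of strong intronic summits, and the odds ratios of distal intergenic regions were 0.975 (0.592 to 1.59) and 0.929 (0.537 to 1.61) with adjusted p of 1 and 0.98 (Fisher's exact test). The intervals leave room for differences of more than 1.5-fold in either direction. The GA repeat was more frequent than at promoters, at 11.6% against 6.02%, with an odds ratio of 2.05 (1.25 to 3.39, Fisher's exact test, adjusted p = 0.020). This call was lost with promoter windows of 2000 bp (1.65), with the 5' ends of every transcript (1.79) and with replicate 1 alone (1.81). Against introns the odds ratio was 1.69 (0.981 to 2.96, Fisher's exact test, adjusted p = 0.22). GC content was alike, at 40.1% ± 7.34 (SD) for promoter and 40.1% ± 8.02 for intronic regions.

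**Figure D5:**
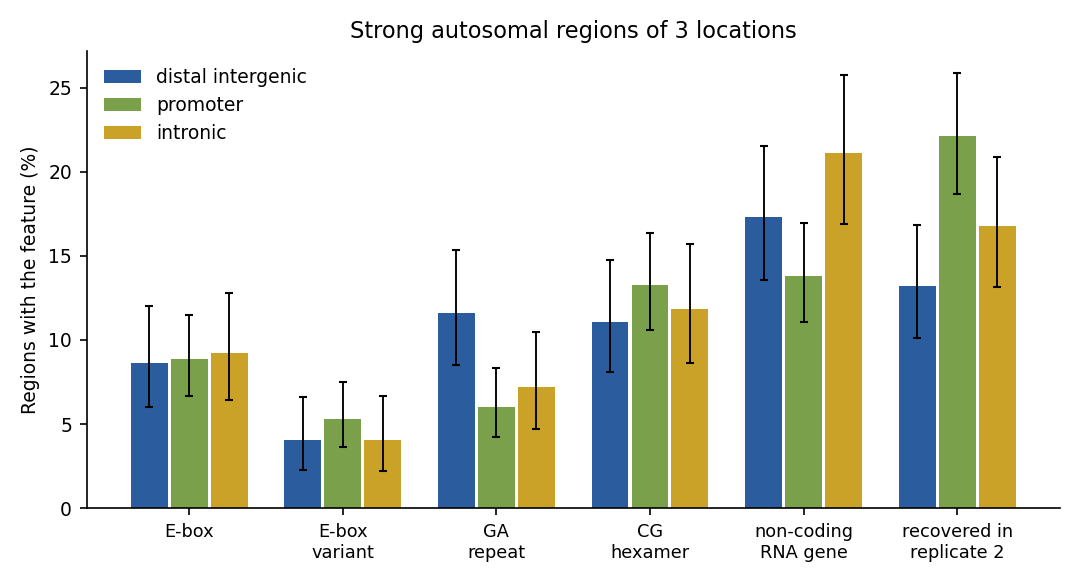
Share of strong autosomal regions with each feature in distal intergenic (blue), promoter (green) and intronic (yellow) locations, with exact 95% binomial intervals. The E-box is CACGTG, its variant CACGCG, the GA repeat GAGAGAG and the CG hexamer CGTCTC, each within 50 bp, a non-coding RNA gene counts within 200 bp, and the last is the share of regions chosen in replicate 1 that recurred in replicate 2. The GA repeat stands at 11.6% against 6.02% in promoters, and recurrence at 13.2% against 22.1%.

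The rule looked at protein-coding genes only, so some regions lay at non-coding RNA genes. Of the 370 summits, 64 (17.3%) were within 200 bp of any annotated non-coding RNA gene, against 16.5% of the weaker summits (odds ratio 1.06, 0.790 to 1.41, Fisher's exact test, p = 0.66). By biotype the results went both ways. These comparisons, and those of small RNA genes below, were not repeated within GC strata. Genes of the biotype ncRNA, mostly short transcripts of unknown function, were near 41 summits (11.1%) against 5.54%, with an odds ratio of 2.12 (1.46 to 3.02, Fisher's exact test, adjusted p = 0.00032 over 8 biotypes). Genes of piRNAs, the germline small RNAs that silence transposons, were near 16 (4.32%) against 9.78%, with an odds ratio of 0.417 (0.234 to 0.694, adjusted p = 0.00054, Fisher's exact test). Pseudogenes, which are not part of the total above, were near 5.14% against 11.7%, with an odds ratio of 0.407 (0.240 to 0.651, Fisher's exact test, adjusted p = 0.0003). With piRNA genes left out, a choice made after seeing the data, the odds ratio of any non-coding RNA gene was 2.04 (1.45 to 2.82). The 5 strongest regions at non-coding RNA genes were those of gdh-1, ppm-2 and egl-9, named above, one inside linc-91 near the chromatin remodeller gene chd-7 (signal 72.6) and one 93 bp from C02F4.10 near tax-6, the calcineurin A gene (72.1).

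Genes of small nucleolar RNAs, tRNAs, snRNAs or miRNAs were near 12 of the summits. Small nucleolar RNA genes, which guide modification of other RNAs, were near 4 (1.08%) against 0.162%, with an odds ratio of 6.72 (1.47 to 25.2, Fisher's exact test, adjusted p = 0.015). These were C18A3.12, C16D9.10, T27A3.9 and H09I01.2, with pooled signals of 46.3, 43.9, 39.2 and 38.7. Genes of tRNAs were near 4, snRNAs near 2 and miRNAs near 2, and none of these types passed (Fisher's exact test, adjusted p from 0.084 to 0.14). The strongest was 35 bp from sls-2.2, a gene of the SL2 spliced leader RNA that is joined to downstream messages of worm operons (chromosome II, 5543393 to 5543732). Its signal was 17.2 in replicate 1, where it ranked 4448, and 43.5 in replicate 2, where it ranked 93, so it rested on replicate 2. A region 70 bp from cel-mir-238 had a signal of 28.8 in replicate 2 and no region in replicate 1.

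A few intergenic stretches held more than 1 strong region. Of the 370, 35 had another within 2000 bp, and the nearest 5' ends belonged to 348 genes. Near cel-mir-52, a microRNA of the mir-51 family, 4 regions lay within 1673 bp on chromosome IV, with pooled signals of 52.7, 47.7, 41.1 and 36.9. The nearest protein-coding 5' end, of Y37A1B.7, was 8789 to 10462 bp away. The second of them was 194 bp from cel-mir-52, with a signal of 20.3 in replicate 1 and 25.2 in replicate 2. The first had 36.8 in replicate 1 and 13.6 in replicate 2. The third had 33.4 in replicate 1 and no region in replicate 2, and the fourth had 13.3 and 18.4. The third, from 14033350 to 14033689, overlapped both the first and the second, so these are not separate stretches. The interval between lpin-1, a lipin phosphatase gene of lipid synthesis, and letm-1 held 4. Of these, 3 lay 1300, 2506 and 3400 bp upstream of lpin-1, with signals of 38.1, 59.0 and 54.6, and the last of them held CACGTG. The other, of signal 35.7, was nearer to letm-1, 2522 bp away, and held both CACGTG and GAGAGAG. Near linc-105, a long intergenic RNA gene, 3 regions of 47.3, 45.2 and 33.04 lay 3036 to 5523 bp from W09D10.4. The interval between T23E1.1 and Y67D8B.1 on chromosome IV also held 3.

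In their position relative to protein-coding genes the strong regions resembled the weaker ones. Their median distance to the nearest 5' end was 2403 bp against 2656 bp, with 16.22% and 19.5% over 5000 bp away. They lay upstream of that gene in 73.2% of cases (95% interval 68.4% to 77.7%) against 69.2%. Flanking genes were divergent for 31.6% against 31.8%, in tandem for 57.3% against 54.1% and convergent for 10.8% (7.84% to 14.4%) against 14.1%. The central of 3 equal parts of a chromosome held 39.2% (34.2% to 44.4%) against 33.3%. Chromosomes I to V held 55, 56, 59, 100 and 100 of the regions, shares of 14.9%, 15.1%, 15.9%, 27.0% and 27.0%, against 15.1%, 18.4%, 15.7%, 25.9% and 24.9% of the weaker set. These are descriptions with no test.

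Lists of pathway genes were counted by the nearest 5' end, with no test. The sets differ in size, so 1 region is 0.270% of the 370 strong ones and 0.0203% of the 4928 weaker ones. The hypoxia list of 7 genes had 2, hif-1 and egl-9, each with 1 strong region (together 0.541%), and 1 weaker region. The AMP-activated kinase list of 9 subunits had aakg-1 alone, and 1 weaker region. Of 6 genes of the Myc, Max and Mondo network, only mml-1, the Mondo homologue, was nearest to a strong region. That region (chromosome III, 7376471 to 7376810) lay 1910 bp upstream of mml-1, with a signal of 27.5 in replicate 1 and 24.8 in replicate 2, where it ranked 296 and 406, and held no CACGTG within 50 bp. Weaker regions nearest to genes of this network numbered 1. The insulin and PI3 kinase genes had 1 strong region and 4 weaker ones (0.0812%). The strong one lay 2339 bp upstream of akt-1, a kinase that acts below the insulin receptor. It held CACGTG and had a signal of 19.3 and 21.4 in replicates 1 and 2. The autophagy genes had 1 strong region and 2 weaker ones (0.0406%). The strong one lay 1461 bp upstream of unc-51, the ULK1 homologue that starts autophagosome formation, and held GAGAGAG (26.6 and 19.0).

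Developmental regulators and other families were counted in the same way, again with no test. The heterochronic genes, which time larval cell fates, had 2 strong regions (0.541%) and 5 weaker ones (0.101%). The lin-41 region had a pooled signal of 35.5 and the lin-29 region one of 31.5. Neither held any of the 3 motifs CACGTG, the GA repeat or CGTCTC. The lin-29 region had no counterpart in replicate 1. Nuclear hormone receptors were nearest to 6 strong regions (1.62%) and to 2.01% of the weaker ones. The 4 strongest were those of nhr-34 and nhr-88, given above, and of nhr-274 (37.03) and nhr-216 (36.2), each of the last 2 found in a single replicate. Homeobox genes had 3 (0.811%, against 22 or 0.446% of the weaker regions), namely ceh-45 (35.6), ceh-22 (34.4), which specifies pharyngeal muscle, and ceh-82 (31.0), and the summit lay downstream of the 5' end in each. Of 77 ribosomal protein genes 2, rpl-31 (33.1) and rpl-9 (32.7), had a strong region (0.541%), and the weaker regions numbered 17 (0.345%). Both strong summits lay past the gene's 3' end. Insulin-like peptide genes had ins-13, by the region at sls-2.2 (0.270%), and 24 weaker regions (0.487%). Collagen genes, 156 in number, had none of the 370 and 27 of the weaker regions, which is only 0.548% of that set.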

How the data were processed

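Binding of an eGFP-tagged factor was measured by ChIP-seq in 2 libraries of 1 group. Per the labels' readme texts, the authors derived region lists from alignments with a control, and made a thresholded list out of those of the pool and of each replicate. Each deposited relaxed list holds 30000 regions with a signal value, whose scaling is, like the aligner, caller and threshold, not given in the sources used here. Control data were not analysed here. No read counts were used here, so depth is unknown.

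Regions of build ce11 were classed with Ensembl release 115 genes on WBcel235, and sequence was read from RefSeq's copy of that assembly. Coordinates are 1-based. Motifs (both strands) were counted up to 50 bp from the summit and GC content up to 100 bp. Shares were compared by two-sided Fisher's exact tests (SciPy 1.17.1) with exact 95% intervals, which cover counting error only, and Benjamini-Hochberg adjustment over 11 sequences, all 6-base sequences, 8 biotypes or 12 comparisons of strong classes. GC strata were 2 percentage points wide (Mantel-Haenszel, statsmodels 0.14.6). Adjusted p under 0.05 passed. Fisher's exact tests of CACGTG and GAGAGAG and the permutation test of GC content were checked on simulated sets of regions. The other tests were not. Regions are not replicates of a condition, and nothing in the labels ties p-values to variation between cultures: they describe these 2 libraries.

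The members, the gene lists and the sequences were chosen with earlier results of these data known. Named genes were those beside the 20 strongest regions, list members (the 4 strongest for large families), the 5 strongest at non-coding RNA genes and those at the rank boundary. Small RNA genes, loci with several regions and CTGCGTCTC were singled out after their values were seen. Alternatives changed the number of regions, background, windows, distances, GC strata and replicates.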

Additional observations from a re-analysis of the deposited data

How the results depend on the processing

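The odds ratio of CACGTG passed in all 14 alternatives (3.11 to 14.9), as did that of GAGAGAG (2.86 to 27.6) and CGTCTC (2.08 to 17.4). The GC difference passed in all 11 (2.01 to 14.1 points) and recovery between replicates in all 4 (6.52 to 22.4). The highest motif values came from the 41 thresholded regions, which are those of pooled rank up to 259, with fewer regions tested. The odds ratio of CACGTG was 12.1 for ranks 1 to 500 and 7.29 for ranks 1 to 1000. The number of 6-base sequences called, 103 in both directions, was 172 for ranks 1 to 1000, 31 against weaker regions of rank up to 10000, 24 with promoter windows of 2000 bp, 41 without summits at non-coding RNA genes, 36 and 249 with windows of 25 and 100 bp, 11 in GC strata and 18 to 119 with a replicate left out. CACGCG did not pass in 4 of 14 (1.82 to 2.69). TGATAA fell below 1 with windows of 100 bp (0.982) and with a replicate left out (0.864 to 0.959), and passed in GC strata (1.53). For any non-coding RNA gene the odds ratio was 0.987 against weaker regions of rank up to 10000, 1.05 to 1.49 with a replicate left out, past the threshold at 1.49 without replicate 1, and 2.04 without piRNA genes. Against strong promoters CACGTG turned above 1 for thresholded regions (1.01), promoter windows of 2000 bp (1.09), GC strata (1.09) and windows of 100 bp (1.26), and against introns with every transcript (1.04), windows of 25 and 100 bp (1.14 and 1.15) and without replicate 2 (0.747 to 1.06 with either left out). None of these passed. GAGAGAG against promoters was 1.65 with windows of 2000 bp, 1.79 with every transcript and 1.81 to 1.91 with a replicate left out, and recovery against promoters 0.574 at 50 bp and 0.707 when chosen in replicate 2, none past the threshold except 1.91. Changing the rank limit, the window or the replicates changes the number of regions tested by construction, and otherwise the cause was not tested. With 1 group there was nothing to pair.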

Other observations

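Some regions were among the leaders of a single replicate. Of the 370, 11 ranked in the first 300 of replicate 1 and beyond 5000 in replicate 2 or were absent there, with a median GC content of 36.3%. The reverse held for 19, with a median of 46.8%. Those strong in replicate 2 included regions near cmd-1, the calmodulin gene (15.9 in replicate 1 and 37.5 in replicate 2), snb-1, the synaptobrevin gene (16.6 and 29.5), and rho-1, the RhoA GTPase gene (41.8 in replicate 2, absent in replicate 1). Those strong in replicate 1 included regions near cox-5B, a cytochrome c oxidase subunit gene (35.7, absent in replicate 2), and mpc-1, a mitochondrial pyruvate carrier gene (31.4 and 13.9). These genes were chosen after their values were seen. Beyond the leaders, CACGTG was also present at regions near pry-1, an Axin homologue of the Wnt pathway (pooled signal 41.5), hpd-1, a tyrosine catabolism enzyme gene (59.1), and mdh-2, a malate dehydrogenase gene (34.6), again picked after their values were seen.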
